A study of Mus musculus with 12 samples.

Results

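The genes described here are those of the mouse major histocompatibility complex (MHC) and of its peptide loading. They comprise every gene whose symbol begins with H2-, the mouse name of the MHC, together with B2m, Tap1, Tap2, Tapbp, Tapbpl, Erap1, Nlrc5, Ciita and Cd74, and leave out symbols marked as -ps pseudogenes. This definition was met by 50 of 49585 genes listed for liver, and the same 50 were found among 55401 listed genes in the macrophage tables. They fell into 28 class I heavy chains, 10 class II genes including Cd74, 8 genes of shared machinery and regulation, and 4 further H2 symbols. Among the class I symbols, H2-Q3 is annotated as an unprocessed pseudogene and H2-Q5, H2-T10 and H2-Bl as polymorphic pseudogenes. Of the 4 further symbols, H2-K2, H2-Pa and H2-Pb are pseudogenes and H2-Ke6 encodes a hydroxysteroid dehydrogenase rather than an MHC chain.

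Polyadenylated RNA was sequenced from C57BL/6 mice in 12 libraries, 3 in each of 4 groups. One pair of groups was liver, either untreated or 2 h after LPS, the bacterial lipopolysaccharide that signals through toll-like receptor 4. The other pair was peritoneal macrophages that carried a lentivirus-delivered short hairpin RNA for 72 h and then received LPS for 2 h. The hairpin was a negative control (shNC) or targeted Gm26917, a long non-coding RNA (shGm26917), so both macrophage groups had received LPS and a lentivirus, and no unstimulated macrophages were compared. The labels give neither age nor sex, nor the route and dose of LPS, nor the number of hairpins, nor whether replicates were separate animals or cultures. The p-values therefore measure only the spread between these libraries.

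Class I molecules, a heavy chain paired with β2-microglobulin (B2m), display peptides from the inside of nearly every nucleated cell to CD8 T cells and are read by natural killer cells. Their peptides are cut by the proteasome, pumped into the endoplasmic reticulum by the Tap1 and Tap2 transporter, trimmed by Erap1 and fitted to the heavy chain with tapasin (Tapbp) and its relative Tapbpl. Class II molecules are dimers of an alpha and a beta chain that present peptides from endocytosed proteins to CD4 T cells. They are made mainly by B cells, dendritic cells and macrophages, and Cd74, the invariant chain, guards their groove until H2-DM exchanges its remnant for peptide. Nlrc5 is the transactivator of class I genes and Ciita that of class II genes. In the liver most RNA comes from hepatocytes, which express class I, while class II is carried mainly by resident and infiltrating leukocytes.

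Libraries held 17322770 to 20913964 counts in liver and 15605311 to 18062853 in macrophages. Levels are CPM (each gene's counts scaled to a common library size) on library sizes scaled by edgeR's trimmed mean of M-values (TMM), and a gene was called when the Benjamini-Hochberg adjusted p of edgeR's quasi-likelihood F test was under 0.05 among all genes tested in that tissue. Summed over 8 hepatocyte markers, liver libraries ranged from 61002 to 125040 CPM and macrophage libraries reached at most 0.469. The macrophage markers Adgre1, Csf1r, Cd68 and Lyz2 were present in every macrophage library. In the liver, 7 of 7 tested neutrophil markers were called higher after LPS, with their sum going from 2.83 ± 1.80 to 235.6 ± 45.3 CPM (SD, n = 3). In bulk RNA, fewer cells of a type and less RNA per cell cannot be told apart.

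Promoter windows of class I and class II genes are shown here because 11 of 14 tested class I chains and 3 of 8 tested class II genes were called higher in liver. RefSeq promoters (build GRCm38.p6) were matched by symbol for 35 members, and the 250 bases before each RefSeq transcription start were searched on both strands, counting overlapping matches. The interferon motifs searched were the core of the interferon-stimulated response element, GAAA and GAAA with any 2 bases between, and its shorter relative GAANNGAAA; the NF-kB consensus was searched by its standard degenerate form. Either interferon motif was found in 8.82% of all 32851 mouse promoter windows, the NF-kB consensus in 3.9%, and both together in 0.353%. Of the 35 members with a window, 11 held an interferon motif, 10 the NF-kB consensus and 9 both: B2m, H2-D1, H2-K1, H2-M2, H2-M3, H2-Q4, H2-Q6, H2-Q7 and H2-T22. Among the 22 class I chains with a window, 10 held an interferon motif and 8 of these also the NF-kB consensus. The sequences below run 5′ to 3′ on the strand of the gene, with matches to the interferon motifs and to the NF-kB consensus in capitals. The first 5 are class I heavy chains and their partner B2m, and each holds both motifs.
H2-K1 (chr17:34000348-34000597, minus strand): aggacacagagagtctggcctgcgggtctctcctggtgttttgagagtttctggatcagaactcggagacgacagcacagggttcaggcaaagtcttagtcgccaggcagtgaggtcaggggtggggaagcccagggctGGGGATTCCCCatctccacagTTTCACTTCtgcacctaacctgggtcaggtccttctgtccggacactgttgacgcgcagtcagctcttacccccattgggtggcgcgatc
H2-D1 (chr17:35262844-35263093, plus strand): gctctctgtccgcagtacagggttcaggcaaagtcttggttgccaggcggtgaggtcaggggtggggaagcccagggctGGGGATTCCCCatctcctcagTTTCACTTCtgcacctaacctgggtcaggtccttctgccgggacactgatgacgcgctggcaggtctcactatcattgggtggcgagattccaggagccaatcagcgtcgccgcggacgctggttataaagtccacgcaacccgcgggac
H2-Q4 (chr17:35379367-35379616, plus strand): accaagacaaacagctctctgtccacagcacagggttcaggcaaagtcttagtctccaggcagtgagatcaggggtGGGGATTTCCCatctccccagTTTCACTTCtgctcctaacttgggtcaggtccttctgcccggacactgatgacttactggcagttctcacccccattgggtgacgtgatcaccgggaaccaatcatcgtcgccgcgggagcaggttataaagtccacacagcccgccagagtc
H2-T22 (chr17:36042743-36042992, minus strand): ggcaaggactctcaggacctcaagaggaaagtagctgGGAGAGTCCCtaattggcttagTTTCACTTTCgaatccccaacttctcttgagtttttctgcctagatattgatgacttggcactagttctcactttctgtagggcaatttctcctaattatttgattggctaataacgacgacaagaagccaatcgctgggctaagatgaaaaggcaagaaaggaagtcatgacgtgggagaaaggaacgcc
B2m (chr2:122147437-122147686, plus strand): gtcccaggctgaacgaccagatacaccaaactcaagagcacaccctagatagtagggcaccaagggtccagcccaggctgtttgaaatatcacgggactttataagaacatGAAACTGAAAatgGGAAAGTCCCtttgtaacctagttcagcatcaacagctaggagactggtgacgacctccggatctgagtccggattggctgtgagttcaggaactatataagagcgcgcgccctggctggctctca

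The next windows are contrasts. H2-Q10, a class I gene known as a secreted product of the liver, matched an interferon motif but not the NF-kB consensus; H2-Aa, a class II alpha chain, matched only the NF-kB consensus; H2-Eb1, a class II beta chain, matched neither.
H2-Q10 (chr17:35469839-35470088, plus strand): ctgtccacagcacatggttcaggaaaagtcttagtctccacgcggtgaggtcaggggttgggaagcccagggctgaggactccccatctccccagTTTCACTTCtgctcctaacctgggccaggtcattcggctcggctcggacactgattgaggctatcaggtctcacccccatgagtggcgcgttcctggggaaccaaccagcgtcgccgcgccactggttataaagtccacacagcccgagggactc
H2-Aa (chr17:34287824-34288073, minus strand): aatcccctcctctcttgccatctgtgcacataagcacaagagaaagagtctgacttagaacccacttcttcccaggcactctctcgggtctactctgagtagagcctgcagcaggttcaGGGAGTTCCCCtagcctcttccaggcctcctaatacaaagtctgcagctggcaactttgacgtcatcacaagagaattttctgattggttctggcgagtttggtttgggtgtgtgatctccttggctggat
H2-Eb1 (chr17:34305617-34305866, plus strand): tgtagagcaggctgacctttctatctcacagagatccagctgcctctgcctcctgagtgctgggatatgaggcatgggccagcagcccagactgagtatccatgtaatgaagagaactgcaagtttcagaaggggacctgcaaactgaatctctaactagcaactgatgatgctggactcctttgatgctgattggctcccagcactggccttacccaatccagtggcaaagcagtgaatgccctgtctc

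None of the 8 class II genes with a window matched an interferon motif. A CCAAT box (CCAAT on either strand) was held by 8 of 8 class II genes and 19 of 22 class I chains. It was held by 31 of all 35 members with a window, beside 33.8% of all windows. A member with more than 1 window was counted when any of them matched, and H2-DMa held the box in window 2 only. The gamma-activated site TTCNNNGAA was found in 3 of the 35 members and in 7.02% of all windows. A match describes letters in a window and is not evidence that a factor binds there. Windows of related class I chains share long stretches, as in H2-K1, H2-D1 and H2-Q4 above, so counts over them are not counts of independent windows.

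In the liver, LPS was followed within 2 h by higher RNA of most tested class I chains, of the peptide transporter and of tapasin and its relative. Of the 14 class I chains tested, 11 were called higher and none lower, and Nlrc5, Tap1, Tap2, Tapbp and Tapbpl were all called higher. By edgeR, 0 class I chains were lower also at an unadjusted p under 0.05, and 0 by DESeq2. Of the class II genes, 3 of 8 tested were called higher, by 1.57- to 1.93-fold, and Ciita was called lower. Across the liver, 45.3% of 13869 genes were called, 23.3% higher and 22.1% lower, and 57.8% had groups whose values did not overlap. The summed class I level went from 4045 ± 527 to 8744 ± 377 CPM (SD, n = 3), 2.16 times as high, and the summed class II level from 124.5 ± 28.9 to 214.9 ± 40.9 CPM, 1.73 times as high. The ratio of the class I to the class II sum was 23.7, 30.6 and 49.4 in untreated and 36.6, 38.0 and 50.1 in LPS libraries, so the groups overlapped in that ratio.

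**Figure D1:**
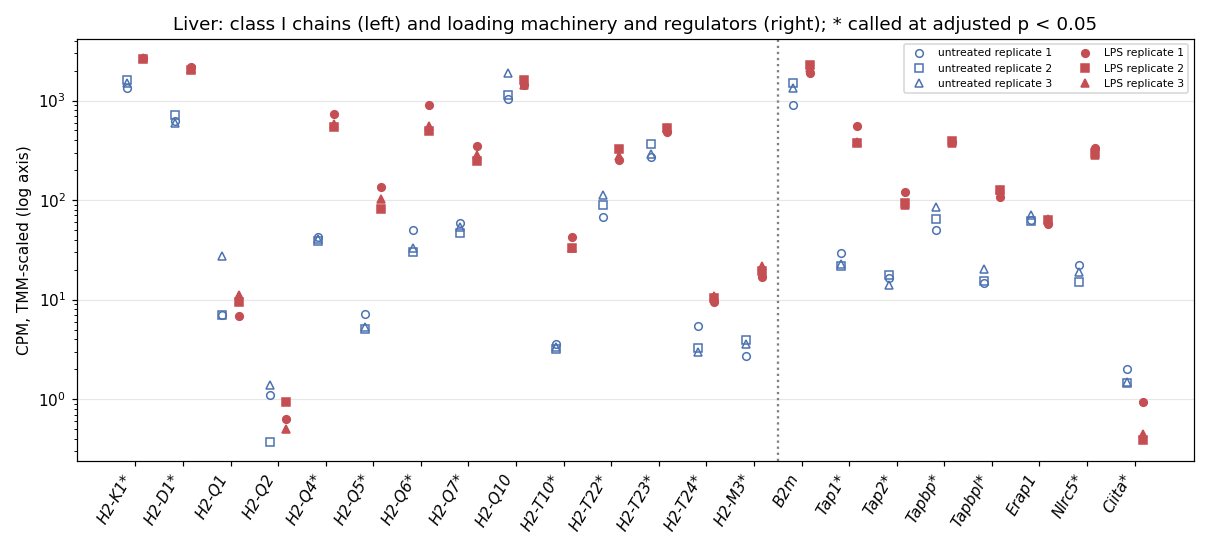
Level of each tested class I chain (left of the dotted line) and of loading genes and regulators (right) in the 6 liver libraries, as TMM-scaled CPM on a log axis; open blue symbols are untreated and filled red symbols LPS replicates, and an asterisk marks an adjusted p under 0.05. For H2-Q4, H2-Q5, H2-Q6, H2-T10, Tap1 and Nlrc5 every LPS library lies far above every untreated library, while for H2-Q10 and Erap1 the symbols intermingle.

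The classical class I chains, which carry the bulk of peptides to CD8 T cells, were abundant before LPS and rose by modest factors. H2-D1 (chr17:35262730-35267499, plus strand) stood at 619.8, 717 and 598 CPM in untreated libraries, against 2166, 2015 and 2052 CPM after LPS. Every LPS library was above every untreated one, with a fold change of 3.22 (log2 1.69 ± 0.23 SE, edgeR adjusted p = 0.000612). H2-K1 (chr17:33996017-34000347, minus strand) went from 1335, 1622 and 1496 to 2669, 2593 and 2664 CPM, again without overlap. Its log2 change of 0.83 ± 0.24 (edgeR adjusted p = 0.0199) was smaller, and with library totals in place of TMM it was 0.41 (adjusted p = 0.116). Without LPS replicate 2 or 3 the H2-K1 call was also lost (adjusted p = 0.0776 and 0.0789). The H2-K1 and H2-D1 windows shown above hold the same pair of motifs.

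The non-classical chains, less polymorphic relatives with specialised ligands, covered the whole range from no call to 18.1-fold. H2-Q4 read 42.6, 38.8 and 40.9 CPM in untreated libraries, against 739, 541 and 574 CPM after LPS. This 15.2-fold difference (log2 3.92 ± 0.24, edgeR adjusted p = 8.18e-06) left a wide gap between the groups. H2-Q6 and H2-Q7 encode Qa-2 antigens. H2-Q6 went from 49.7, 29.9 and 33.3 to 891, 497 and 548 CPM (log2 4.10 ± 0.34, edgeR adjusted p = 3.87e-05), with LPS replicate 1 the highest. H2-Q7 went from 59.4, 47.0 and 53.6 to 346, 244 and 285 CPM (log2 2.45 ± 0.22). H2-Q5, annotated as a polymorphic pseudogene, read 7.19, 5.05 and 5.30 against 134, 81.0 and 103 CPM, the largest fold of the tested class I symbols at log2 4.18 ± 0.26. These Q genes share sequence: 36.4% of the 50-base transcript windows of H2-Q4, 36.4% of H2-Q5, 35% of H2-Q6 and 26.5% of H2-Q7 also occur in another gene, often another Q gene. No source used here says how reads that fit several genes were counted, so the split between them is uncertain.

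Of the T and M symbols, 5 were tested in liver and all were called higher. H2-T10 and H2-T22 are ligands of a subset of γδ T cells. H2-T10 rose from 3.60, 3.20 and 3.34 to 42.6, 33.2 and 32.7 CPM (log2 3.42 ± 0.20), and H2-T22 from 68.3, 89.4 and 112 to 249.6, 328 and 277 CPM (log2 1.66 ± 0.24). Of their 50-base transcript windows, 50.4% and 53.5% also occur in another gene, so the split of reads between them is uncertain. H2-M3, which presents formylated bacterial peptides, read 2.73, 3.94 and 3.56 in untreated and 16.9, 19.2 and 21.8 CPM in LPS libraries (log2 2.50 ± 0.22, edgeR adjusted p = 5.38e-05). None of these groups overlapped. H2-T23, whose product Qa-1 is read by natural killer cell receptors, had a log2 change of 0.73 ± 0.21 (272, 365 and 291 against 484, 523 and 528 CPM, edgeR adjusted p = 0.0219). Its call was lost with library totals (log2 0.31, adjusted p = 0.186) and without untreated replicate 1 or LPS replicate 2 or 3 (adjusted p from 0.0516 to 0.083), and when all 12 libraries were fitted together (adjusted p = 0.25). H2-T24 went from 5.46, 3.29 and 3.00 to 9.53, 10.3 and 10.9 CPM (log2 1.38 ± 0.27), a call also lost in that joint fit (adjusted p = 0.163).

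Of the tested class I chains, H2-Q10, H2-Q1 and H2-Q2 were not called. H2-Q10 was among the most abundant of all, at 1030.4, 1138 and 1888 CPM without LPS and 1421, 1614 and 1432 CPM after it. The groups overlapped (log2 0.14 ± 0.29, edgeR adjusted p = 0.721), and the sign turned with library totals (log2 -0.28). H2-Q1 read 6.92, 6.999 and 27.3 against 6.83, 9.49 and 11.01 CPM, where untreated replicate 3 stood high; without it the log2 change was 0.39 instead of -0.59, uncalled in both cases. H2-Q2 read at most 1.39 CPM, with 99 counts in all. All 8 called chains with a promoter window held an interferon motif and 7 of them also the NF-kB consensus. Both appear in the H2-K1, H2-D1, H2-Q4 and H2-T22 windows above. Because several of these windows are close relatives in sequence, the 8 are not independent cases, and a link between motif and call was not tested. The uncalled chains with a window were H2-Q10, with an interferon motif only, and H2-Q2, with neither. Outside the chains, Tap1 and Tapbp were called higher although their windows held neither an interferon motif nor the NF-kB consensus. B2m held both and was not called.

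Per kilobase of exon, the order of class I levels changed with LPS. In untreated liver H2-K1 stood at 505 ± 49.0 CPM per kb (SD, n = 3), H2-Q10 at 311 ± 107, H2-D1 at 250.1 ± 24.6, H2-T23 at 107 ± 16.9, and H2-Q6 and H2-Q4 at 18.0 ± 5.08 and 15.7 ± 0.735. H2-Q10 and H2-D1 did not differ beyond their spread. After LPS, H2-K1 at 899 ± 14.4 and H2-D1 at 806 ± 30.6 CPM per kb led, followed by H2-Q10 at 343 ± 24.9, H2-Q6 at 309 ± 103 and H2-Q4 at 238 ± 40.7. The mean ± SD range of H2-Q6 overlapped those of both its neighbours in that order, although within every LPS library H2-Q6 was above H2-Q4. These differences were not tested. B2m, the shared light chain, was above every heavy chain on this scale in both groups, at 1453 ± 359 and 2435 ± 222 CPM per kb.

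The called loading genes rose by 5.75- to 17.8-fold. Tap1 (chr17:34187553-34197225) went from 29.1, 21.6 and 22.5 to 548, 375 and 379.6 CPM (17.8-fold, log2 4.15 ± 0.27, edgeR adjusted p = 1.06e-05). Tap2, its partner in the transporter, went from 16.3, 17.7 and 13.9 to 119.8, 94.4 and 89.9 CPM (log2 2.67 ± 0.20). For both subunits every LPS library stood clear of the untreated ones. Tap1 overlaps the antisense gene Psmb9, which was also called higher (log2 3.04), and 3.33% of the 50-base transcript windows of Tap1 also occur in another gene. Tapbp read 50.1, 64.9 and 84.7 against 382, 395 and 372 CPM (log2 2.52 ± 0.24). Tapbpl read 14.6, 15.2 and 20.4 against 107, 128 and 127 CPM (log2 2.85 ± 0.21). B2m was higher in every LPS library, at 907, 1507 and 1334 against 1894, 2275 and 2113 CPM, but its log2 change of 0.75 ± 0.27 missed the threshold (edgeR adjusted p = 0.0517) and passed it under DESeq2 (adjusted p = 0.0068). Erap1, the trimming peptidase, read 62.4, 61.6 and 71.1 against 57.9, 62.6 and 64.6 CPM (log2 -0.08 ± 0.16, edgeR adjusted p = 0.723).

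The class I and class II transactivators moved in opposite directions. Nlrc5 (chr8:94434356-94527272) rose from 22.1, 14.9 and 18.7 to 331, 297 and 283 CPM, 16.4-fold (log2 4.03 ± 0.24, edgeR adjusted p = 7.23e-06). Ciita (chr16:10480059-10528418) fell from 2.00, 1.44 and 1.48 to 0.94, 0.39 and 0.44 CPM (log2 -1.47 ± 0.44, edgeR adjusted p = 0.0241). Neither gene's groups overlapped, but Ciita rested on 138 counts over the 6 libraries. The Ciita call did not hold when untreated replicate 1 was left out (adjusted p = 0.0735), nor without LPS replicate 2 (0.0944) and without LPS replicate 3 (0.0938). The antisense neighbour that overlaps Nlrc5, 9330175E14Rik, was also called higher (log2 2.87), at a mean of 9.51 CPM after LPS; 0.338% of the 50-base transcript windows of Nlrc5 also occur in another gene.

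Class II RNA was scarcer than class I RNA in the liver, and its called genes rose by less than 2-fold. Cd74 went from 63.0, 54.6 and 34.8 to 107.5, 107.1 and 80.0 CPM (1.93-fold, log2 0.95 ± 0.25, edgeR adjusted p = 0.0145). H2-Ab1, the beta chain of I-A, went from 28.6, 24.6 and 18.4 to 56.9, 45.5 and 30.0 CPM (log2 0.89 ± 0.27, edgeR adjusted p = 0.0245). H2-Eb1, the beta chain of I-E, went from 23.1, 19.5 and 15.2 to 38.7, 27.2 and 25.0 CPM (log2 0.65 ± 0.23, edgeR adjusted p = 0.0469). LPS replicate 1 was the highest library for each of these genes, and none had overlapping groups. H2-Aa, the alpha chain of I-A, also did not overlap, at 25.9, 25.5 and 13.5 against 38.7, 33.1 and 28.8 CPM, and was not called (log2 0.63 ± 0.26, edgeR adjusted p = 0.0802). With library totals no class II gene was called higher: Cd74 had a log2 change of 0.51 (adjusted p = 0.14), H2-Ab1 0.45 (0.215) and H2-Eb1 0.22 (0.499). The H2-Ab1 call was also lost without any of untreated replicates 2 and 3 and LPS replicates 1 and 2 (adjusted p from 0.0527 to 0.0796). The H2-Eb1 call held in 6 of 13 alternatives and was lost without any 1 library except untreated replicate 1 (adjusted p from 0.0516 to 0.14).

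The class II editors were low in liver, at no more than 4.605 CPM in any library, and none was called by the main fit. H2-DMa and H2-DMb1, which together form H2-DM, had log2 changes of -0.11 ± 0.38 and 0.44 ± 0.26, at 2.64 to 3.56 CPM and 2.69 to 2.87 CPM in untreated libraries. H2-DMb2, a duplicate beta chain, read 0.86, 1.30 and 1.30 against 0.69, 0.50 and 0.38 CPM (log2 -1.13 ± 0.41, edgeR adjusted p = 0.0514) and was called lower under library totals (log2 -1.54, adjusted p = 0.0135). H2-Ob, a chain of the inhibitor H2-DO, had a log2 change of -0.10 ± 0.48. H2-Oa and H2-Eb2 held too few counts to be tested, at 35 and 9 over the 6 libraries.

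Markers of the cells that usually carry class II were read beside it. Over all liver genes tested, 23.3% were called higher and 22.1% lower. Summed over 8 B cell markers, untreated libraries stood at 8.83, 11.03 and 8.68 CPM and LPS libraries at 8.21, 6.16 and 4.49 CPM; 6 were tested, 1 was called lower (Cd79b) and none higher. The dendritic cell sum was 12.4, 9.73 and 11.5 against 10.7, 5.49 and 6.83 CPM, with 1 of 6 tested markers called higher (Ccr7) and 1 lower (Zbtb46). The sum of Kupffer cell and macrophage markers was 322, 351 and 275 against 109.5, 335 and 273 CPM, with 0 of 8 called by edgeR, 0 at an unadjusted p under 0.05 and 0 by DESeq2. The LPS library with the lowest macrophage marker sum, replicate 1, was the one with the highest class II sum, at 251 CPM against 224 and 170. Some other marker sums were higher after LPS. The large peritoneal macrophage sum was 43.1, 45.6 and 86.1 against 239, 288 and 265 CPM. Of its 6 tested markers 3 were called higher (Gata6, Prg4 and Selp) and 0 lower. Their means went from 8.67, 28.5 and 1.38 to 34.1, 156 and 56.1 CPM, which made up most of the rise in the sum. The other 3 tested, Timd4, Adgre1 and Icam2, were not called, with log2 changes of 0.09 ± 0.31, -0.51 ± 0.34 and 0.46 ± 0.46. The sum of small peritoneal macrophage and monocyte markers was 4.32, 4.54 and 4.78 against 5.58, 6.55 and 5.38 CPM. Of its 5 tested markers 1 was called higher (Ly6c2) and 2 lower (Cx3cr1 and Ccr2). The part of cell composition in these results was not tested.

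**Figure D2:**
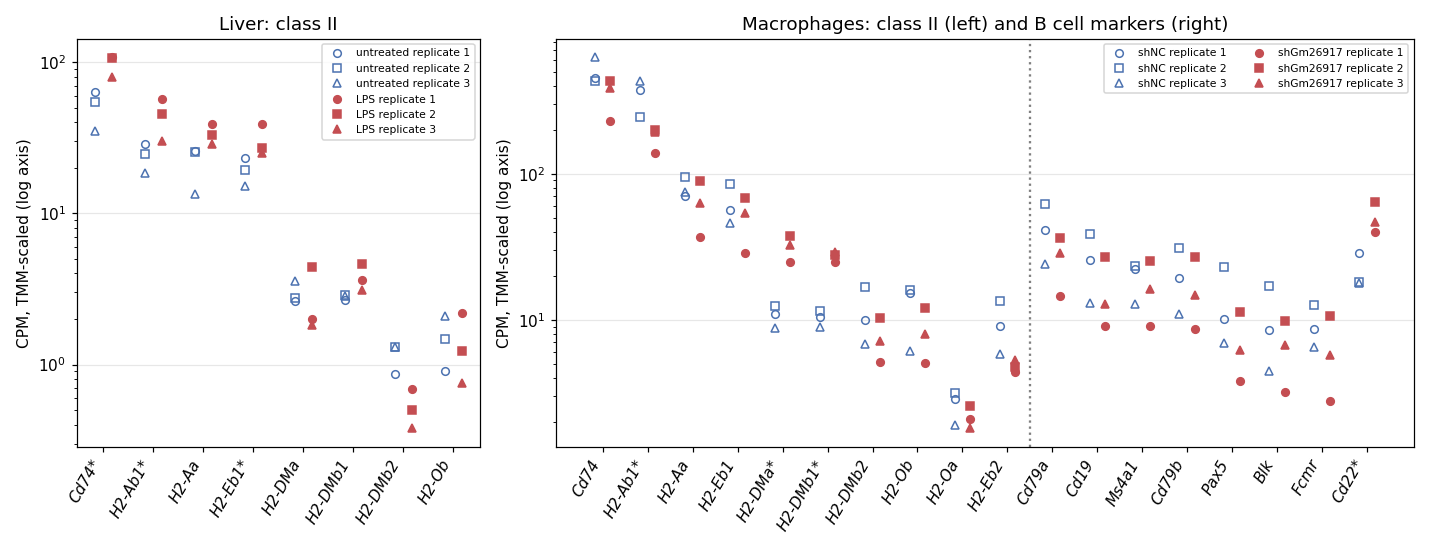
Level of class II genes in liver (left panel) and of class II genes and B cell markers in macrophages (right panel, split by the dotted line), as TMM-scaled CPM on log axes; symbols give the replicate, open blue the control group and filled red the treated group, and an asterisk marks an adjusted p under 0.05. In macrophages shNC replicate 2 is the highest library for 6 and shGm26917 replicate 1 the lowest for 7 of the 10 class II genes, while H2-DMa, H2-DMb1, H2-Ab1 and H2-Eb2 separate by group.

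The genes that feed and regulate the pathway in liver were read from a list of 40 others, of which 38 were tested. Of these, 13 were called higher and 3 lower. In either direction the list was called about as often as all liver genes, of which 45.3% were called, 23.3% higher and 22.1% lower. In class I peptide supply 5 of 11 were called higher and none lower, and these were all proteasome genes: Psmb8, Psmb9, Psmb10, Psme1 and Psme2. Psmb10 and Psmb9, catalytic subunits of the immunoproteasome, had the largest changes at log2 3.35 ± 0.36 and 3.04 ± 0.17, with Psmb9 at 18.1, 18.4 and 19.02 against 150.2, 157 and 150.2 CPM. Of 7 class II peptide supply genes 0 were called by edgeR, 0 reached an unadjusted p under 0.05 and 0 were called by DESeq2; Ifi30, the lysosomal thiol reductase, read 8.4, 11.1 and 12.8 against 8.5, 13.1 and 10.5 CPM. The median log2 change was 0.67 for class I supply and 0.22 for class II supply, beside -0.06 over all genes tested.

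Among 13 regulators 6 were called higher and 1 lower, beside 23.3% and 22.1% of all liver genes tested. Irf1, a transcription factor of the interferon response, read 15.9, 22.1 and 20.2 against 372, 208 and 245 CPM (log2 3.82 ± 0.29), without overlap between the groups. March8, a ubiquitin ligase that removes MHC molecules from the surface, was called lower (log2 -0.95 ± 0.24). Among class I-like proteins encoded outside the H2 symbols, Procr, the endothelial protein C receptor, rose by log2 5.26 ± 0.35 and Hfe, a regulator of iron uptake, by 0.48 ± 0.17. Mr1, which presents vitamin B metabolites, and Raet1e, a ligand of the NKG2D receptor, were called lower by log2 -1.77 ± 0.52 and -1.03 ± 0.35.

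In macrophages given LPS, the Gm26917 hairpin was accompanied by lower RNA of some non-classical class I chains and of the class I transporter and transactivator, and by higher RNA of H2-DM. H2-T24, H2-T22 and H2-T10 were called lower, as were Tap1, Tap2 and Nlrc5, while the classical chains H2-K1 and H2-D1 and B2m were not called. In class II, H2-DMa and H2-DMb1 were called higher and H2-Ab1 lower. That makes 2 members called higher and 7 lower of 34 tested. Over all 12876 genes tested, 12.6% were called higher and 11.1% lower, or 23.7% in either direction. Groups did not overlap for 12 of the 34 members and for 45.9% of all genes. The share of members called was thus near that of all genes, and the share without overlap was below it. Gm26917 itself was not analysed here in macrophages, so the effect of the hairpin on its own target was not checked.

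One control library stood apart. Of the 34 tested members, 25 had their highest value in shNC replicate 2, including 12 of 14 class I chains and 7 of 8 genes of shared machinery and regulation. The class I sum was 5672, 12836 and 7827 CPM in shNC and 6571, 6443 and 6641 CPM in shGm26917 libraries. The shGm26917 libraries were nearly equal and lay within the shNC range. The same library was highest for Irf1, at 51.1, 178 and 61.0 CPM in shNC against 92.5, 93.1 and 94.5 CPM in shGm26917 libraries. Irf1 was not called (log2 -0.05 ± 0.46, edgeR adjusted p = 0.947). Changes of the members are therefore given with and without that library. Without it, 2715 genes were called higher and 2521 lower of 13221 tested, against 1618 and 1431 of 12876 with all libraries. That library was picked from the values of these same members, so calls and smaller adjusted p-values without it are not independent support.

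**Figure D3:**
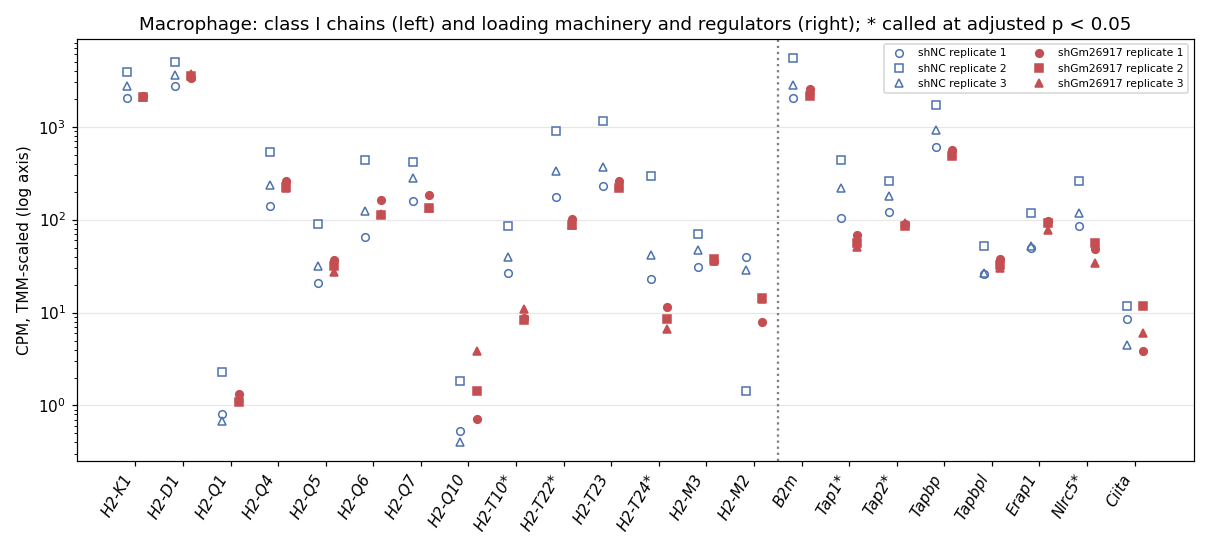
Level of each tested class I chain (left of the dotted line) and of loading genes and regulators (right) in the 6 macrophage libraries, as TMM-scaled CPM on a log axis; open blue symbols are shNC and filled red symbols shGm26917 replicates, and an asterisk marks an adjusted p under 0.05. The square of shNC replicate 2 is the top point of most columns, and for H2-T10, H2-T22, H2-T24, Tap1, Tap2, Tapbp and Nlrc5 all 3 shNC libraries lie above all shGm26917 libraries.

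H2-T24 showed the largest log2 difference of the tested members, at 22.8, 293 and 42.0 CPM in shNC and 11.4, 8.43 and 6.63 CPM in shGm26917 libraries. The groups did not overlap (log2 -3.75 ± 0.99, edgeR adjusted p = 0.0369), and without shNC replicate 2 the log2 change was -1.89 (adjusted p = 0.00214). H2-T22 read 177, 899 and 336 against 100.4, 87.7 and 88.0 CPM (log2 -2.35 ± 0.56, edgeR adjusted p = 0.0279), and -1.50 without that library. H2-T10 read 26.3, 84.5 and 39.2 against 8.76, 8.38 and 10.9 CPM (log2 -2.42 ± 0.43, edgeR adjusted p = 0.0118), and -1.82 without it. H2-T22 and H2-T10 share sequence: 53.5% and 50.4% of their 50-base transcript windows also occur in another gene, most often in each other or in an antisense neighbour. H2-T24 shares 3.17% of its windows. The H2-T22 call was lost without shNC replicate 3 (adjusted p = 0.0519). All 3 calls were lost when any single shGm26917 replicate was left out, with adjusted p from 0.0511 to 0.129.

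The classical chains and the Q region were not called, and the direction of several Q genes rested on shNC replicate 2. H2-K1 read 2027, 3879 and 2716 against 2159.9, 2074 and 2083 CPM (log2 -0.45 ± 0.26, edgeR adjusted p = 0.252, and -0.19 without shNC replicate 2). H2-D1 read 2731, 4969 and 3577 against 3339, 3492 and 3668 CPM (log2 -0.10 ± 0.26, adjusted p = 0.797 by edgeR, and 0.13 without that library). In both, the shGm26917 libraries fell inside the shNC range. H2-Q4, H2-Q5 and H2-Q6 had log2 changes of -0.37 ± 0.45, -0.58 ± 0.51 and -0.69 ± 0.65; without shNC replicate 2 these became 0.30, 0.25 and 0.44, none called. H2-Q7 read 159.9, 421 and 282 against 185, 134 and 134 CPM (log2 -0.93 ± 0.35, edgeR adjusted p = 0.0968, and -0.56 without shNC replicate 2). H2-T23 read 229.8, 1153 and 367 against 261, 217 and 235 CPM, a log2 change of -1.30 ± 0.56 (edgeR adjusted p = 0.139) that became -0.35 without shNC replicate 2.

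H2-M3 and the remaining class I chains were not called either. H2-M3 read 31.3, 70.8 and 47.4 against 35.9, 37.3 and 36.1 CPM (log2 -0.45 ± 0.27, and -0.13 without shNC replicate 2). H2-M2 ran against the other chains: shNC replicate 2 was its lowest library, at 1.42 CPM beside 39.5 and 28.8 in the other shNC libraries and 7.89, 14.3 and 13.9 in shGm26917 libraries. Its log2 change was -0.95 ± 0.91 with all libraries and -1.52 (edgeR adjusted p = 0.00291) without that one. H2-Q1 and H2-Q10 read at most 3.86 CPM in any macrophage library, with log2 changes of -0.06 ± 0.51 and 1.10 ± 0.79, which without that library were 0.68 and 2.05, uncalled. Of the 14 tested class I chains 13 had a negative change, with a median log2 of -0.64 beside -0.00073 over all genes tested. Without shNC replicate 2, 8 of 14 were negative and the median was -0.16.

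Among the loading genes, the transporter was lower with the Gm26917 hairpin. Tap1 read 104, 435 and 220.4 CPM in shNC and 67.6, 56.5 and 50.6 CPM in shGm26917 libraries (log2 -2.12 ± 0.49, edgeR adjusted p = 0.0247). Tap2 read 119, 258 and 180.5 against 90.5, 84.8 and 91.2 CPM (log2 -1.07 ± 0.27, edgeR adjusted p = 0.0323). Both kept their calls without shNC replicate 2, at log2 -1.50 (adjusted p = 0.00486) and -0.77 (adjusted p = 0.00997), and neither had overlapping groups. Tapbp also did not overlap, at 602, 1723 and 919 against 564, 479 and 517 CPM, and missed the threshold (log2 -1.06 ± 0.37, edgeR adjusted p = 0.0827, and -0.56 without shNC replicate 2). B2m overlapped, at 2031, 5469.9 and 2817 against 2563, 2141 and 2439.7 CPM (log2 -0.53 ± 0.37, edgeR adjusted p = 0.333, and -0.04 without shNC replicate 2). Tapbpl had a log2 change of -0.05 ± 0.29, and 0.35 without that library. Erap1 read 49.3, 119 and 52.5 against 96.0, 91.5 and 78.0 CPM (log2 0.27 ± 0.34); without shNC replicate 2 it was called higher (log2 0.78, edgeR adjusted p = 0.00233).

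Nlrc5 was called lower and Ciita was not. Nlrc5 read 86.3, 259 and 118 CPM in shNC and 47.8, 55.8 and 33.8 CPM in shGm26917 libraries, without overlap (log2 -1.75 ± 0.43, edgeR adjusted p = 0.0293). Without shNC replicate 2 its log2 change was -1.17 (adjusted p = 0.00428). Ciita read 8.51, 11.8 and 4.46 against 3.82, 11.9 and 6.07 CPM, with full overlap (log2 -0.19 ± 0.50, edgeR adjusted p = 0.808, and 0.15 without shNC replicate 2). The calls of Tap1, Tap2 and Nlrc5 were lost without shNC replicate 3 (adjusted p from 0.0524 to 0.0767) and without any 1 of the shGm26917 replicates (adjusted p from 0.0743 to 0.117). With library totals Tap2 had a log2 change of -0.77 (adjusted p = 0.0555).

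H2-DM, the dimer that exchanges the Cd74 remnant for peptide, was called higher in macrophages in every setting tried. H2-DMa (chr17:34119541-34139101) read 10.99, 12.4 and 8.78 CPM in shNC and 25.0, 37.2 and 32.7 CPM in shGm26917 libraries. H2-DMb1 (chr17:34153072-34160230) read 10.4, 11.4 and 8.98 against 24.9, 28.0 and 28.97 CPM. Every shGm26917 library lay above every shNC library, with folds of 2.95 (log2 1.56 ± 0.21, edgeR adjusted p = 0.00526) and 2.65 (log2 1.41 ± 0.15, adjusted p = 0.00342). Both were called higher in all 13 alternative settings, among them each left-out library, with log2 changes from 1.43 to 1.85 and from 1.31 to 1.70. H2-DMb2, which lies between them on chromosome 17, was not called, at 10.05, 16.7 and 6.82 against 5.14, 10.2 and 7.14 CPM (log2 -0.58 ± 0.39, edgeR adjusted p = 0.316). H2-DMb1 and H2-DMb2 share 22.7% and 25.9% of their 50-base windows, chiefly with each other. H2-DMa overlaps the antisense gene Brd2, which was not called (log2 -0.51, adjusted p = 0.102).

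No other class II gene was called higher beside H2-DM. H2-Ab1 read 373, 246 and 432 against 139, 199 and 194 CPM, without overlap (log2 -0.98 ± 0.25, edgeR adjusted p = 0.0324). Its call held without shNC replicate 2 (log2 -1.20, adjusted p = 0.00161) and was lost without any 1 of the other 5 libraries (adjusted p from 0.0796 to 0.105) and with library totals (log2 -0.69, adjusted p = 0.0761). Cd74 read 454, 429 and 626 against 231, 432 and 384 CPM (log2 -0.53 ± 0.27, edgeR adjusted p = 0.198). H2-Aa read 70.7, 94.9 and 74.5 against 36.7, 89.5 and 63.4 CPM (log2 -0.34 ± 0.31), and H2-Eb1 56.8, 84.7 and 46.0 against 28.5, 68.5 and 53.6 CPM (log2 -0.32 ± 0.35). These 3 overlapped between groups, with shGm26917 replicate 1 the lowest library in each. H2-Eb2 did not overlap, at 9.11, 13.4 and 5.81 against 4.38, 4.76 and 5.27 CPM (log2 -0.97 ± 0.31, edgeR adjusted p = 0.0653). The chains of H2-DO, H2-Oa and H2-Ob, had log2 changes of -0.29 ± 0.30 and -0.58 ± 0.45. Without shNC replicate 2 the log2 change was -0.65 for Cd74, -0.22 for H2-Aa, -0.05 for H2-Eb1, -0.65 for H2-Eb2, -0.16 for H2-Oa, -0.38 for H2-Ob and -0.18 for H2-DMb2, none called.

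B cell markers moved between libraries in a similar order to several class II chains. The sum of 8 B cell markers was 165, 226 and 96.6 CPM in shNC and 91.2, 211 and 138 CPM in shGm26917 libraries, none at 0, with Cd79a at 41.2, 62.2 and 24.1 against 14.6, 36.3 and 28.9 CPM. Of these 8 markers 1 was called higher (Cd22) and none lower. Across the 10 class II genes, shNC replicate 2 was the highest library for 6 and shGm26917 replicate 1 the lowest for 7. H2-DMa, H2-DMb1 and Cd22 departed from that order, and so did H2-Ab1 and Cd74, which were highest in shNC replicate 3 and lower in shNC replicate 2 than in the other shNC libraries. The dendritic cell sum was 139.95, 59.9 and 73.1 against 118, 137 and 197 CPM, with Clec9a called higher and Ccr7 and Xcr1 lower. Among macrophage markers 4 of 7 tested were called higher with the Gm26917 hairpin: Cd68, Csf1r, Vsig4 and Lyz2. Over all genes tested in macrophages, 12.6% were called higher and 11.1% lower. The part of other cell types in the class II values was not tested.

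Pathway genes outside the members were called in both directions in macrophages. Of 37 tested genes 7 were called higher and 7 lower, beside 12.6% and 11.1% of all genes tested. Without shNC replicate 2 these counts were 15 and 9, in a fit that called 2715 genes higher and 2521 lower of all 13221 tested. In class I supply, 1 of 11 was called higher, the aminopeptidase Lap3 (log2 0.46 ± 0.13), and 3 lower. Among the lower ones, Psme2, a proteasome activator subunit, had a log2 change of -0.89 ± 0.17 and Pdia3, a disulfide isomerase of the loading complex, one of -0.61 ± 0.16. In class II supply 3 of 7 were called higher and 1 lower. Ifi30 read 133, 112 and 86.8 CPM in shNC and 456, 441 and 443 CPM in shGm26917 libraries (log2 2.01 ± 0.18, edgeR adjusted p = 0.00251), and Ctss, the protease that trims Cd74, 864, 1028 and 998 against 1449, 2025 and 1984 CPM (log2 0.92 ± 0.19). Sppl2a, which cleaves the Cd74 remnant in the membrane, was called lower (log2 -0.96 ± 0.18).

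Class I-like proteins outside the H2 symbols had 3 of 6 tested called higher and 1 lower, beside 12.6% and 11.1% of all genes tested. Mr1 rose by log2 2.02 ± 0.59 and Cd1d1, which presents lipids, by 1.67 ± 0.39, while Procr fell from 2399.6, 1219 and 3107 to 479.7, 219 and 444 CPM (log2 -2.56 ± 0.44, edgeR adjusted p = 0.011). Of 13 regulators 2 were called lower, among them Nfya, a subunit of the factor that binds the CCAAT box (log2 -0.51 ± 0.15), and none higher.

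**Figure D4:**
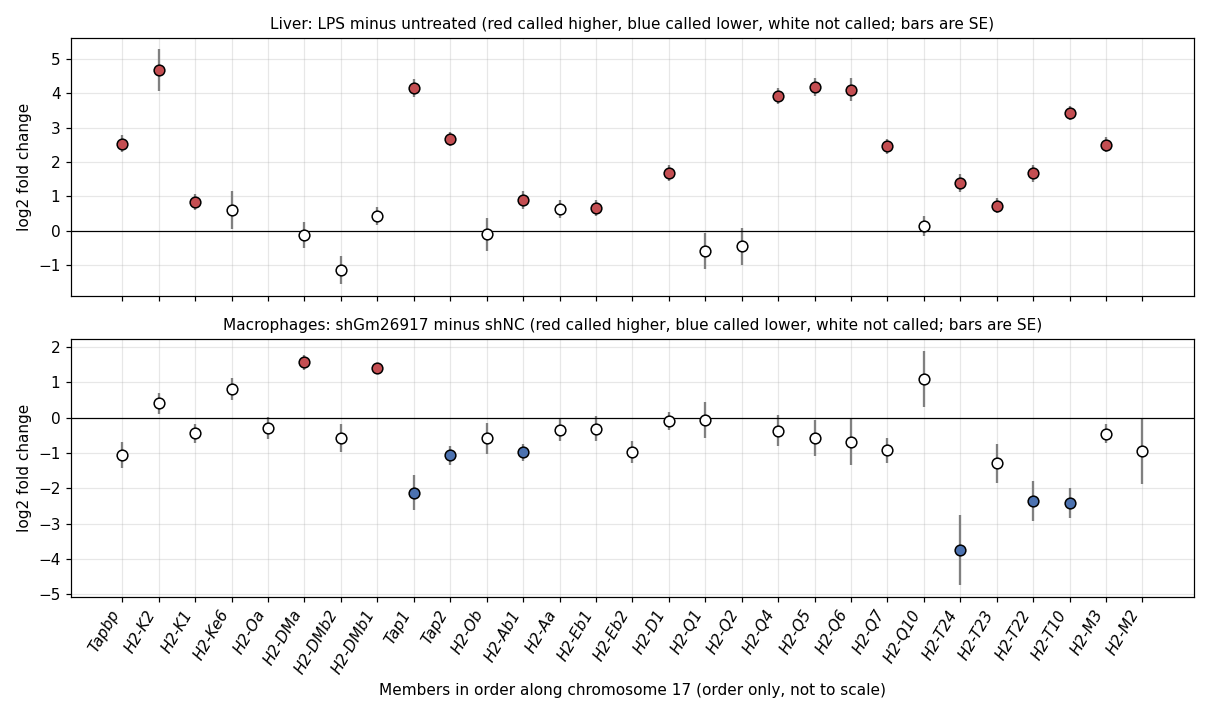
Log2 fold change of each tested member on chromosome 17 in gene order (spacing not to scale), for LPS against untreated liver (top) and for shGm26917 against shNC macrophages (bottom); bars are standard errors, red is called higher, blue called lower and white not called. In liver the class II genes from H2-DMa to H2-Eb1 lie between -1.13 and 0.89 and are interrupted by Tap1 and Tap2, at 4.15 and 2.67, while in macrophages H2-DMa and H2-DMb1 lie above and Tap1, Tap2 and H2-Ab1 below 0.

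Neighbours on chromosome 17 could lie on different sides of the threshold. In liver Tap1 and Tap2 lie among class II genes, and with log2 changes of 4.15 and 2.67 they stood next to H2-DMb1 at 0.44 and H2-Ob at -0.10. The Q genes H2-Q4, H2-Q5, H2-Q6 and H2-Q7 rose together while their neighbours H2-Q1, H2-Q2 and H2-Q10 were not called. In macrophages H2-DMa and H2-DMb1, called higher, lie beside Tap1 and Tap2, called lower. Set side by side, log2 changes in liver and macrophages were 4.15 and -2.12 for Tap1, 4.03 and -1.75 for Nlrc5, 3.42 and -2.42 for H2-T10, 1.66 and -2.35 for H2-T22, and 1.69 and -0.10 for H2-D1. These compare different treatments in different cells, were fitted separately, and the difference between them was not tested.

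The 4 further H2 symbols gave 1 call. H2-K2, a transcribed pseudogene beside H2-K1, read 4.14, 4.54 and 10.2 CPM in untreated liver, against 297, 80.5 and 104 CPM after LPS (log2 4.66 ± 0.60, edgeR adjusted p = 0.000454), with LPS replicate 1 well above the others. In macrophages it read 11.1, 23.1 and 13.4 against 16.2, 24.6 and 22.1 CPM (log2 0.40 ± 0.30), and was called higher without shNC replicate 2 (log2 0.76, edgeR adjusted p = 0.0209). H2-Ke6 was not called, with log2 changes of 0.60 ± 0.54 in liver and 0.81 ± 0.32 in macrophages. In macrophages it was called higher with library totals (log2 1.10, edgeR adjusted p = 0.0442) and without shNC replicate 2 (log2 1.05, adjusted p = 0.0426). Of its 50-base windows, 70.5% are shared with an overlapping gene on the same strand. H2-Pa and H2-Pb had no count in liver. Of all 50 members, 12 had no count in any liver library and 10 none in any macrophage library. The other 6 untested members of each tissue had at most 81 and 13 counts over the 6 libraries.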

How the data were processed

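RNA was measured in 12 libraries, 3 per group; the sample titles and treatments gave each library its group and number. Each library had 1 table of deposited counts, unnormalized whole numbers of reads for every Ensembl gene, as the file headers show. STAR, featureCounts 1.6.3 and mm10 appear in the submitters' processing notes. Strand use, treatment of multiply mapped reads and annotation release were not given in the sources used here. The macrophage tables are headed as combined, and what was combined is not given. Symbols came from GENCODE M21 and matched 49326 of 49585 liver and 55141 of 55401 macrophage genes.

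Each tissue was fitted alone with edgeR 4.0.16 (R 4.3.3): filterByExpr defaults, TMM scaling, the quasi-likelihood F test on group, 2-sided, and Benjamini-Hochberg adjustment over all genes tested, called under 0.05. SE is the log2 change divided by the square root of F. CPM per kb uses the union of exons. TMM factors ranged over 1.07 to 1.27 (untreated liver), 0.845 to 0.881 (liver after LPS), 0.863 to 0.958 (shNC) and 1.09 to 1.12 (shGm26917). Alternatives were library totals, DESeq2 size factors, DESeq2 1.42.0, other low-count filters, a replicate block, 1 fit over all 12 libraries and leaving out each library. The fit was tested on simulated counts in which few genes changed. In liver it recovered 20.6% of 2-fold and 81.1% of 4-fold changes. In macrophages it recovered 23.7% and 82.2%. A change that was not called is therefore not shown to be absent. Members, gene lists and promoter motifs were chosen with earlier results of these data known. Named with their values were every tested member and, from each group of other pathway genes, the 2 largest called changes in each direction; 1 gene that this rule selects is not reported here. Other genes were named after their values were seen. No replicates agreed within sampling noise.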

Additional observations from a re-analysis of the deposited data

How the results depend on the processing

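Library totals moved the median log2 change of all genes from -0.06 to -0.49 in liver and from -0.00 to 0.29 in macrophages, and called 1943 genes higher and 5305 lower in liver (3227 and 3060 with TMM; 26.8% higher instead of 51.3%) and 3135 higher and 794 lower in macrophages (1618 and 1431; 79.8% instead of 53.1%). Under them liver class II had 0 higher and 1 lower and liver machinery 2 lower; in macrophages class II had 0 lower and the pathway list 12 higher and 4 lower. Uncalled members that changed sign were H2-Q10 in liver (-0.28) and Ciita (0.10), H2-D1 (0.20), H2-Q1 (0.23) and Tapbpl (0.24) in macrophages. In liver the filter of 1 CPM in 3 libraries and the fit of all 12 libraries each called 1 class II gene lower. In macrophages DESeq2 called 5 class I and 2 class II members lower, and no filter and the fit of all 12 libraries each left the pathway list with 4 lower.

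Deviations of same-numbered libraries correlated at 0.13, 0.067 and -0.077 in liver (other pairs up to 0.15) and at -0.06, 0.27 and 0.23 in macrophages (up to 0.2), and 3 of 6 and 4 of 6 libraries correlated best with their own number. Not every pair was positive, so the replicate block is an alternative only. With the block, macrophage class II had 0 lower and the pathway list 3 lower, H2-Q1 read 0.10 and Tapbpl 0.023, H2-Ab1 and H2-T24 lost their calls (adjusted p = 0.0515 and 0.0668), and H2-Aa in liver was called higher (adjusted p = 0.0362). It changed no other member's call.

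Leaving out 1 library gave, in liver, 1 to 3 class II members higher, 0 to 1 of the machinery lower and 1 to 4 pathway genes lower. In macrophages it gave 479 to 2715 genes higher and 360 to 2521 lower, 0 to 4 class I and 0 to 1 class II members lower, 0 to 1 of the machinery higher and 0 to 4 lower, and 2 to 15 pathway genes higher and 0 to 9 lower. LPS liver H2-Q4, H2-Q5, H2-Q6, H2-Q7, H2-D1, H2-T10, H2-T22, H2-M3, H2-K2, Nlrc5, Tap1, Tap2, Tapbp and Tapbpl, and macrophage H2-DMa and H2-DMb1, kept their calls in all 13 alternatives. Uncalled log2 changes that changed sign ranged, in liver, from -0.62 to 0.12 for H2-DMa, -0.57 to 0.22 for H2-Ob, -0.93 to 0.39 for H2-Q1 and -0.029 to 0.46 for H2-Q10. In macrophages they ranged from -0.74 to 0.15 for Ciita, -0.31 to 0.13 for H2-D1, -0.37 to 0.68 for H2-Q1, -0.72 to 0.30 for H2-Q4, -0.96 to 0.25 for H2-Q5, -1.13 to 0.44 for H2-Q6 and -0.24 to 0.35 for Tapbpl. The causes of these changes were not tested.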

Other observations

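Some members were too sparse to test but were not silent. H2-T3, the thymus leukaemia antigen, had 0 counts in each untreated liver library and 4, 3 and 3 in the LPS libraries, and 2 counts over all macrophage libraries. H2-Bl had 12, 8 and 37 counts in untreated and 8, 9 and 7 in LPS liver, where untreated replicate 3 was also the highest library for H2-Q1, at 27.3 CPM. H2-M2 had 24 counts over all liver libraries and 1698 over all macrophage libraries. H2-Q10 stood at 311 ± 107 CPM per kb (SD, n = 3) in untreated liver and at 0.212 ± 0.180 in shNC macrophages, levels scaled separately in each tissue. These genes were chosen after their values were seen.

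Per kilobase, the ratio of H2-D1 to H2-K1 within a library was 0.529, 0.504 and 0.455 in untreated liver and 0.925, 0.885 and 0.877 after LPS. In macrophages it was between 1.46 and 1.53 in the 3 shNC libraries and read 1.76, 1.92 and 2.01 in shGm26917 libraries. Both pairs of groups stood apart in this ratio, which was chosen after the values were seen and was not tested. Cd74 stood at 299.7 ± 63.7 CPM per kb in shNC macrophages and at 30.3 ± 8.64 in untreated liver.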
